A study of Mus musculus with 12 samples.

Results

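The response to the complex I inhibitor IACS-010759 was compared between MycER-primed and nonprimed cells, gene by gene, as a difference of differences. FL5.12 is an interleukin 3-grown mouse cell line of BALB/c origin, labelled prolymphocytic. All 12 libraries came from FL5.12 cells transduced with a retroviral vector that constitutively expresses MycER, a chimera of MYC and the estrogen receptor that becomes active when 4-hydroxytamoxifen (OHT) is added. The 4 groups had 3 libraries each. They were untreated cells, the OHT group (100 nM OHT, 72 h in all), the IACS group (135 nM IACS-010759, 24 h) and the OHT_IACS group, in which IACS-010759 was added for the last 24 h to cells that had received OHT 48 h earlier. Sequencing covered total RNA depleted of ribosomal RNA. No library of cells without MycER was analysed here, so an effect of OHT itself and an effect of MycER activation cannot be told apart, and the cells are a single transduced line.

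The interaction of a gene was (OHT_IACS minus OHT) minus (IACS minus untreated) on the group means of log2 RPKM, where RPKM is reads scaled to the gene's length in kilobases and to the library's size. An interaction of 0 means that the effects of OHT and of IACS-010759 added up on the log2 scale, a positive value means a higher response to IACS-010759 in OHT-primed cells, and a negative value a lower one. Every gene with an RPKM of 1 or more in 3 or more libraries entered, which gave 9745 of the 21671 genes in the table. The choice of genes did not use the interaction.

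MYC is a transcription factor that pairs with MAX at E-box sequences and is known for raising genes of ribosome production, nucleotide synthesis and mitochondria. Complex I is the entry point of electrons from NADH into the respiratory chain, and its block disturbs the supply of aspartate and of oxidized NAD. Cells meet such a block with the integrated stress response, in which phosphorylated eIF2 alpha lowers general translation while the transcription factor ATF4 raises genes of amino acid synthesis and transport.

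The label of a prolymphocytic, B-lineage line was checked against markers. The B-lineage markers Pax5, Rag1 and Dntt were at 0 in all 12 libraries, and the summed RPKM of the B-lineage list ran from 2.1 to 5.1. Myeloid, mast cell and erythroid markers were at higher levels, with summed RPKM from 18.6 to 36.9 for 7 myeloid markers, from 29.0 to 49.1 for 6 mast cell and basophil markers (Gata2 and Cpa3 gave most of it) and from 33.8 to 44.9 for 4 erythroid markers. The defining markers Cebpa (myeloid), Kit (mast cell) and Cd3e (T cell) were at 0 throughout. The myeloid sum was 36.1 to 36.9 in untreated cells, 26.7 to 33.7 with IACS and 19.0 to 23.9 with OHT alone. Its lowest value, 18.6, was in an OHT_IACS library, but the OHT and OHT_IACS ranges overlapped. The mast cell sum was 29.0 to 31.3 with OHT, 43.6 to 45.8 with IACS and 44.8 to 49.1 with OHT_IACS. In bulk RNA, fewer cells of a type and less RNA per cell cannot be told apart, and the part of such a shift in the interactions below was not tested.

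At an adjusted p under 0.05 (limma, Benjamini-Hochberg over 9745 genes) the interaction was called for 14 genes, 0.144% of those tested, and in all 14 the response to IACS-010759 was higher in OHT-primed cells. This direction was not common to all settings, since 92 genes were called higher and 38 lower without OHT replicate 2, 533 and 533 with weights per library, 30 and 4 with quantile scaling and 11 and 6 on the RPKM scale. For comparison, the response to IACS-010759 itself was called for 1548 genes (15.9%) in nonprimed cells, 8.15% raised and 7.74% lowered, and for 2310 (23.7%) in OHT-primed cells, 11.9% raised and 11.8% lowered. The response to OHT was called for 3546 genes (36.4%) without and 2585 (26.5%) with IACS-010759. At an unadjusted p under 0.05 the interaction was higher for 662 genes (6.79%) and lower for 578 (5.93%), and its median over all genes was -0.01. On the RPKM as deposited, without scaling between libraries, the split was 426 higher and 833 lower, at a median of -0.04. The count of called genes rested on single libraries, with 130 without OHT replicate 2 and 3 without OHT replicate 3 or OHT_IACS replicate 3. Among genes whose response to IACS-010759 was called in both contexts, 504 were raised in both, 407 were lowered in both and 3 went in opposite directions.

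**Figure D1:**
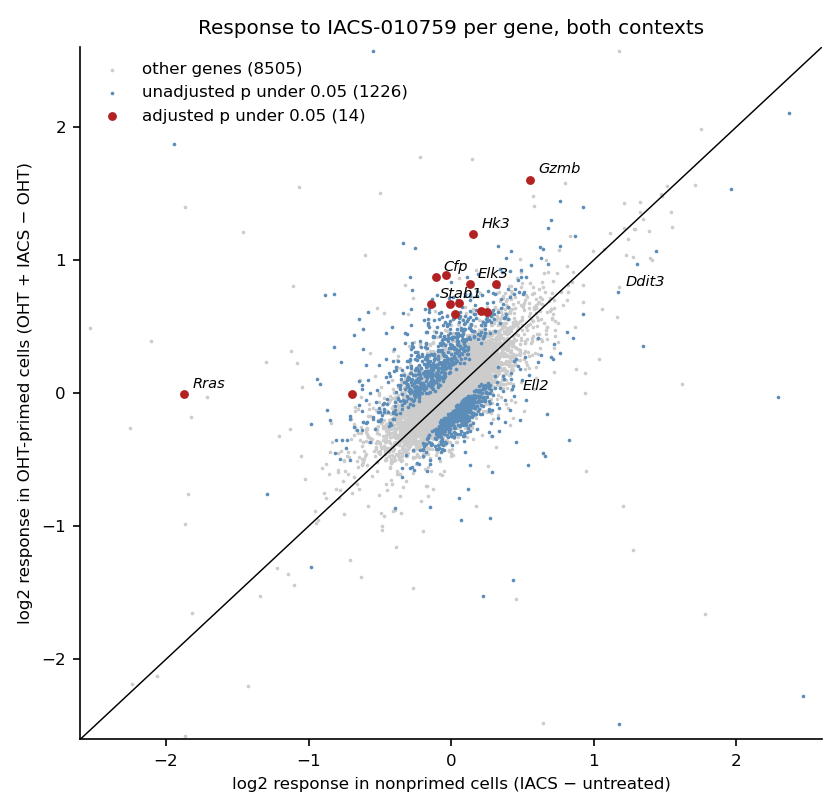
Each point is a gene. The x axis gives the log2 response to IACS-010759 in nonprimed cells and the y axis that in OHT-primed cells, the line marks equal responses, and 15 of 9745 genes lie outside the axes. The 14 called genes (red) all lie above the line.

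Gzmb, which encodes the granule protease granzyme B, measured 22.4, 21.8 and 21.1 RPKM in untreated cells, 15.04, 16.85 and 15.8 with OHT, 33.9, 32.2 and 31.9 with IACS and 44.0, 50.7 and 50.9 with OHT_IACS. OHT alone lowered it and IACS-010759 alone raised it, and the 3 libraries with both agents were the highest of all 12. Additive effects would have put it at 23.8 RPKM, whereas the mean of the libraries with both agents was 48.5 ± 3.95 (SD, n = 3). Its interaction was 1.05 ± 0.08 (SE) on the log2 scale, with an adjusted p of 6.7e-05 by limma. Read the other way, OHT changed Gzmb by -0.48 in the absence and by 0.57 in the presence of IACS-010759.

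Hk3, a hexokinase that catalyses the first step of glycolysis and is typical of myeloid cells, followed a different pattern with an interaction of the same size. It stood at 14.7, 15.1 and 16.1 RPKM in untreated cells and at 18.5, 18.3 and 15.4 with IACS. OHT brought it down to 3.531, 3.797 and 3.487, and with OHT_IACS it read 7.398, 9.543 and 8.321. The OHT and OHT_IACS libraries did not overlap, whereas those of untreated and IACS cells did. IACS-010759 thus raised Hk3 by 1.20 in OHT-primed cells (adjusted p = 4.7e-07, limma), against 0.15 in nonprimed cells (adjusted p = 0.21, limma). The interaction was 1.04 ± 0.11 (SE, adjusted p = 0.0015, limma), and Hk3 remained below its untreated level in all 3 OHT_IACS libraries.

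Cfp encodes properdin, the positive regulator of the alternative complement pathway. Its RPKM values were 6.62, 6.54 and 6.02 in untreated cells, 4.24, 4.89 and 4.26 with OHT, 6.72, 6.07 and 5.36 with IACS and 7.60, 8.28 and 8.85 with OHT_IACS. The libraries with both agents were above all 9 others, and the interaction was 0.98 ± 0.12 (SE, adjusted p = 0.0035, limma). Stab1, a scavenger receptor of macrophages and endothelium, was at low levels, with 1.55, 1.49 and 1.48 RPKM in untreated cells and 1.41, 1.42 and 1.32 with IACS. It was raised by OHT to 3.23, 3.32 and 3.08 and further to 5.17, 5.22 and 5.06 with OHT_IACS, without overlap between those groups. Stab1 was 1 of 2 called genes that OHT raised, and its interaction was 0.81 ± 0.11 (SE, adjusted p = 0.015, limma). The call for Stab1 was lost without untreated replicate 1 (0.053), OHT replicate 3 (0.080), OHT_IACS replicate 1 (0.078) or OHT_IACS replicate 3 (0.071), each an adjusted p of limma.

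Tuba8, an alpha tubulin, measured 43.9, 42.1 and 42.1 RPKM in untreated cells and 47.6, 44.5 and 41.3 with IACS, so that these groups overlapped. It fell to 21.9, 20.7 and 21.7 with OHT and stood at 30.9, 34.3 and 32.1 with OHT_IACS. The interaction was 0.57 ± 0.08 (SE, adjusted p = 0.012, limma). The call for Tuba8 was lost without untreated replicate 1 (0.053), OHT replicate 3 (0.061) or OHT_IACS replicate 3 (0.059), each an adjusted p of limma. These 5 genes, Gzmb, Hk3, Cfp, Tuba8 and Stab1, are the ones that were also called when the log2 total of each library entered the fit.

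**Figure D2:**
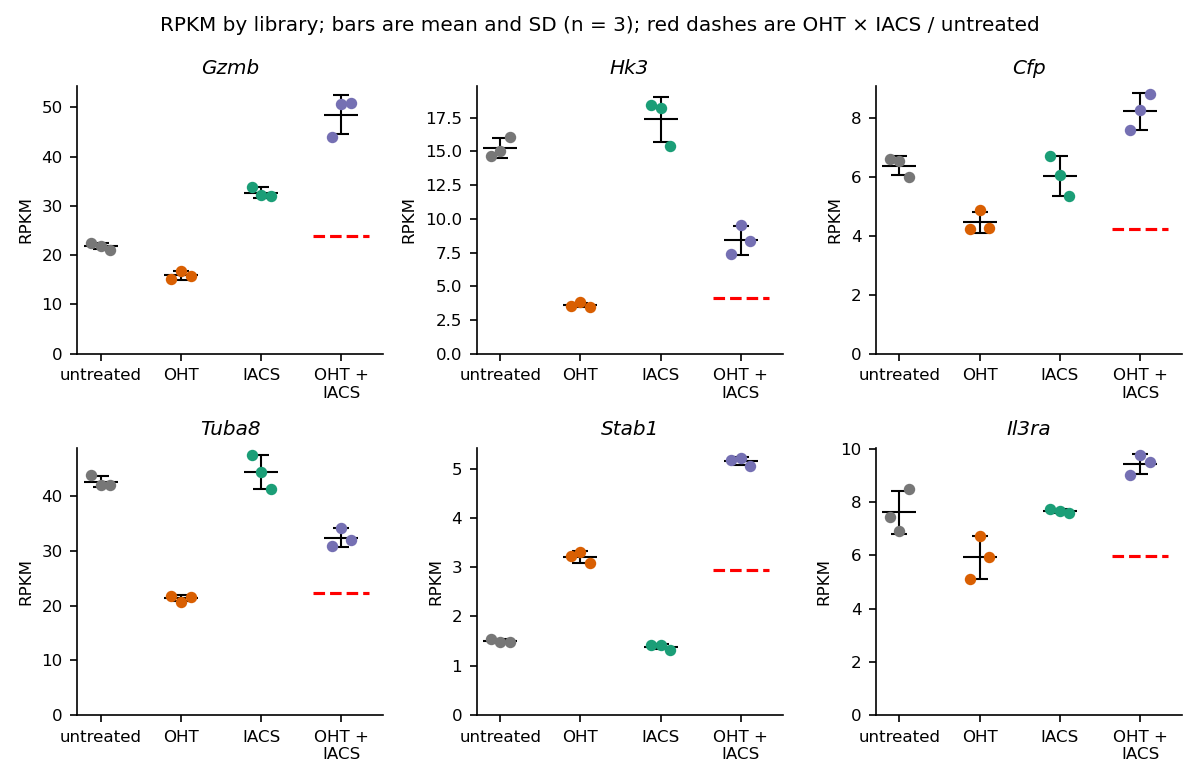
RPKM (y axis) by condition (x axis) in single libraries for 6 called genes, with the mean and SD of 3 libraries; the red dashes give the level expected from additive log2 effects (OHT × IACS / untreated). The 3 libraries with both agents lie above the dashes in every panel, for Gzmb at 44.0 to 50.9 against 23.8 RPKM.

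The other 9 called genes included regulators of transcription and signalling. Leaving out any 1 library other than OHT replicate 2 ended 7 to 9 of these calls, with adjusted p of 0.055 to 0.18 (limma). Mycn, the N-myc member of the MYC family, had 30.2, 28.6 and 30.5 RPKM in untreated cells, 18.9, 19.9 and 17.5 with OHT, 39.1, 37.4 and 37.0 with IACS and 31.3, 34.4 and 33.9 with OHT_IACS. IACS-010759 raised it in both contexts, by 0.32 and by 0.82, with no overlap of treated and control libraries, and the interaction was 0.50 ± 0.08 (SE, adjusted p = 0.039, limma). Elk3, an ETS-family transcription factor downstream of RAS signalling, had an interaction of 0.69, and Il3ra, the alpha chain of the interleukin 3 receptor, 0.68. Il3ra ran from 5.116 to 6.733 RPKM with OHT and from 9.03 to 9.78 with OHT_IACS, while IACS and untreated libraries overlapped at 6.90 to 8.49.

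Cat, the peroxisomal catalase that breaks down hydrogen peroxide, had the smallest interaction of the 14, 0.36, with 15.4 to 16.8 RPKM with OHT and 24.3 to 24.8 with OHT_IACS. Ctrl, a chymotrypsin-like protease (interaction 0.93), Rab44, a large Rab GTPase (0.41), and Ptprv (0.62) were lowered by OHT and raised by IACS-010759 in OHT-primed cells. Rras, a small GTPase of the RAS family, and 4930404N11Rik differed from these. IACS-010759 lowered both in nonprimed cells, while OHT_IACS libraries overlapped those of OHT. Rras rested on few reads, with 10, 11 and 12 in untreated libraries, 3, 2 and 1 with IACS, 16, 17 and 18 with OHT and 18, 15 and 19 with OHT_IACS, so no fold is given for it. The interaction of 4930404N11Rik was 0.69. That of Ctrl ran from 0.55, at a pseudocount of 1, to 1.12 over the alternatives.

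By direction, OHT alone was called for all 14 genes, as lower in 12 and as higher in 2 (Stab1 and Rras). IACS-010759 was called as higher in OHT-primed cells for 12 of them, and in nonprimed cells for 4 (Gzmb, Mycn, Cat and Rab44). Since the contrast of OHT with untreated cells shares both of its groups with the interaction, these directions are a description. For every 1 of the 14 genes the 9 pairwise log2 differences between OHT_IACS and OHT libraries did not overlap the 9 between IACS and untreated libraries, as held for 575 (5.90%) of all genes tested. The 14 were chosen by a test of the same difference in the same libraries, so this too is a description.

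Since MYC binds E-boxes, the 250 bases before the RefSeq start (GRCm38.p6) of the called genes, in a later build than the mm9 of the deposited values, were searched on both strands for the E-box CACGTG. A motif of GATA factors, AGATAA, was searched in the same way. So was TGATGCAA, a composite motif known for ATF4. Of 11 called genes with such a window, 1 (Tuba8) held CACGTG, against 10.4% of 7366 tested genes, and none held AGATAA (6.80% of genes) or TGATGCAA (0.638%). The windows of the 2 genes with the smallest p and of Tuba8 are shown, with the E-box in capitals. Gzmb is on the minus strand at chr14:56262335-56262584, Hk3 on the minus strand at chr13:55021386-55021635 and Tuba8 on the plus strand at chr6:121210484-121210695, where the last bases before the start were left out because GENCODE places a transcript there.
Gzmb: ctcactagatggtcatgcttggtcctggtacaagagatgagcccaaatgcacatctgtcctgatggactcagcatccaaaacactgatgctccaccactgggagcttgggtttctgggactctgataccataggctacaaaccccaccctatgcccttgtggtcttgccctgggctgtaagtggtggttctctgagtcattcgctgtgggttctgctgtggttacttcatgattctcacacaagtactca
Hk3: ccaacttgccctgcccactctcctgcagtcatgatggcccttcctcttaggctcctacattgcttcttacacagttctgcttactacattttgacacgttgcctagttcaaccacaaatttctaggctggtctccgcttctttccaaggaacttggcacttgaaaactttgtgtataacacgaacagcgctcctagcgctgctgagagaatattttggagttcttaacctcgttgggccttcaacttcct
Tuba8: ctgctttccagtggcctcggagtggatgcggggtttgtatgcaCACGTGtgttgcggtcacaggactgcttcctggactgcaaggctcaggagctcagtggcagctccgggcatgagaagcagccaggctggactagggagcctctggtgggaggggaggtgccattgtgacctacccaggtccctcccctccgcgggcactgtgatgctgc
A match of these letters is a description of the window, and the absence of a match says only that the letters are not in it.

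In the fit of all 12 libraries no gene whose response to IACS-010759 was lower in OHT-primed cells passed the adjusted threshold, whereas 38 did without OHT replicate 2. The smallest p among these lower responses belonged to Ell2, an elongation factor of RNA polymerase II, with 4.95, 5.23 and 4.82 RPKM in untreated cells, 6.73, 7.33 and 6.80 with IACS, 7.58, 8.45 and 8.76 with OHT and 8.31, 8.26 and 7.77 with OHT_IACS. Either agent alone was associated with a higher level, and the libraries with both agents lay within the range of OHT. Its interaction was -0.46 with an adjusted p of 0.055 (limma). The next were Mtrf1, a mitochondrial translation release factor (-0.85), Rars2, the mitochondrial arginyl-tRNA synthetase (-0.41), the zinc transporter gene Slc39a10 (-0.34), the receptor gene Gpr171 (-0.35) and Ddit3 (-0.41), followed by Naa15, Zw10, Cnot2 and Kpna3 at -0.28 to -0.32. Rars2 rose in nonprimed cells, from 9.65 to 9.87 RPKM in untreated libraries to 11.4 to 12.6 with IACS. It ran from 10.1 to 10.8 with OHT and from 8.85 to 10.1 with OHT_IACS. The adjusted p of these 10 genes ran from 0.055 to 0.14.

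Of the 3 genes called in opposite directions in the 2 contexts, Flywch1 had 9.18, 9.44 and 9.33 RPKM in untreated cells and 8.50, 7.51 and 7.80 with IACS, but 6.03, 7.39 and 6.20 with OHT and 7.64, 7.96 and 7.76 with OHT_IACS. The treated libraries lay below their controls in nonprimed cells and above them in OHT-primed cells. The other two were the small nucleolar RNA gene Snord69 (interaction 0.57, 23.8 reads on average) and C130036L24Rik (interaction 1.20, 29.1 reads on average). None of the 3 passed the adjusted threshold in the interaction itself.

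Library depth was unequal between the groups, so the values were set against it. The library totals worked out from the steps between RPKM values ran from 10376530 to 14550158 reads. What this total counts is not given in the sources used here, and 39.3% to 42.5% of it lay on the genes of the table. All 3 untreated libraries (13375674 to 14550158) exceeded all 3 OHT_IACS libraries (11792608 to 11913079), and OHT held the 2 smallest (10376530 and 10770476) beside a larger one of 13956222. The log2 total itself departed from additivity by 0.19, being lower by 0.16 with IACS than in untreated libraries and higher by 0.03 with OHT_IACS than with OHT. At a total this uneven, depth and condition cannot be fully told apart with 3 libraries a group.

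Read density, the mean reads per base of a gene, ordered the interactions. Reads on sparse genes grew more steeply than the library total, with a median slope within groups of 1.41 in log2 reads per log2 total at 0.01 to 0.03 reads per base. Reads on dense genes levelled off, with a slope of 0.80 at 0.3 to 1 reads per base and 0.19 at 1 and over. Rmrp, a noncoding RNA gene at 1.44 reads per base, had 378 to 408 reads in every library. The RPKM of such a gene mostly follows the inverse of the library total, so responses of dense genes may be understated. The median interaction fell along the same order, from 0.08 for 1336 genes at 0.01 to 0.03 reads per base through 0.03 for 3037 genes, -0.02 for 3491 genes and -0.08 for 1748 genes to -0.13 for the 84 densest genes. The slopes multiplied by the interaction of the log2 total gave 0.05, 0.04, 0.01, -0.06 and -0.18 for the same bins, which had the sign of the median in 4 of the 5. With the log2 total as a covariate the medians were 0.04, -0.01, -0.02, 0.00 and 0.04, and no longer fell in order. The 49 genes under 0.01 reads per base lay off this order, at -0.03 and, with the covariate, -0.10. The within-group slopes and the covariate fit rest mainly on the OHT and IACS groups, with totals of 10376530 to 13956222 and 11133789 to 13729131. The untreated totals (13375674 to 14550158) and the OHT_IACS totals (11792608 to 11913079) varied less. Depth cannot be told apart there from other ways in which OHT replicate 2 and IACS replicate 3 differed from their mates.

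The departures at an unadjusted p under 0.05 moved with the same adjustment. Higher interactions numbered 529 (5.43%) and lower ones 630 (6.46%) with the covariate. Of the 662 higher without it, 395 (59.7%) were also among the 529, of which they were 74.7%. Of the 578 lower, 441 (76.3%) were among the 630, of which they were 70.0%. Among the 84 densest genes the number higher at this level was 0 without and 13 with the covariate. The number of called genes was 5 with the covariate, all higher, and the interactions of these 5 genes were then 1.03 (Gzmb), 0.98 (Hk3), 0.91 (Cfp), 0.59 (Tuba8) and 0.80 (Stab1). The remaining 9 had adjusted p of 0.089 to 0.099 (limma) with it.

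**Figure D3:**
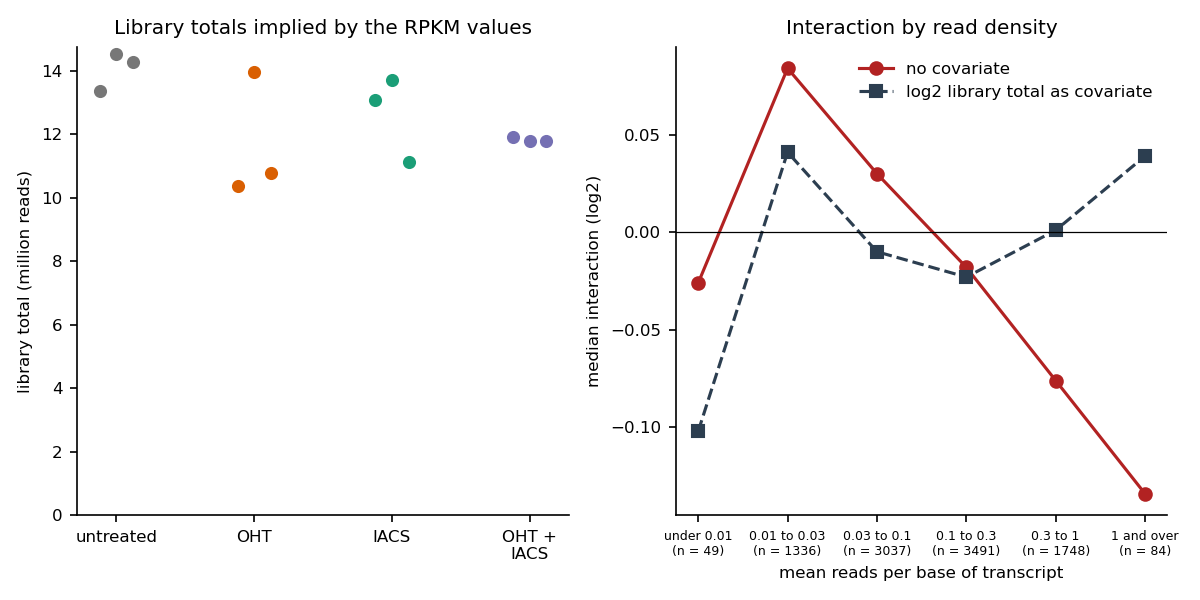
Left, library totals in reads, scaled as labelled (y axis) by condition, 1 point a library. Right, median interaction on the log2 scale (y axis) by mean reads per base (x axis, number of genes below each bin), without a covariate (red circles, from 0.08 down to -0.13 over the last 5 bins) and with the log2 of the library total in the model (dark squares, 0.04 at both ends of those bins).

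By function, the medians of 41 gene lists were compared with the median of all genes, -0.01. Across 27 settings, including the covariate and each library left out, 9 lists kept a median above 0, 7 had one above 0 in none and 25 changed sign. All lists were written by hand with earlier results of these data known, so their counts are no independent evidence. The lists were not tested. Their members at an unadjusted p under 0.05 are read against the 6.79% higher and 5.93% lower of all genes.

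Ribosome biogenesis, the nucleolar assembly of ribosomal subunits and a known MYC program, had a median interaction of -0.13, with 9 of 56 genes lower and none higher at an unadjusted p under 0.05. With the covariate the median was -0.07, and all 9 genes (Imp4, Ddx10, Heatr1, Noc3l, Nop14, Utp15, Wdr75, Wdr43 and Nop58) were among the 11 that were lower. Of the 9, those after Ddx10 were named after their values were seen. Imp4, a component of the processing complex of the small subunit, read 36.7, 36.0 and 37.5 RPKM in untreated cells, 39.9, 40.3 and 39.5 with IACS, 47.4, 44.8 and 49.3 with OHT and 42.8, 41.8 and 41.3 with OHT_IACS. IACS-010759 was associated with higher levels in nonprimed and lower levels in OHT-primed cells, without overlap in either context, and the interaction was -0.26. The medians of the list were 0.03 in nonprimed and -0.09 in OHT-primed cells, with 2 genes called as raised in nonprimed cells, 9 as lowered in OHT-primed cells and none in the opposite directions, against the 8.15% of all genes raised in the former and the 11.8% lowered in the latter.

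The 78 cytosolic ribosomal proteins tested, the densest list at 0.877 reads per base, had a median of -0.13 too, but 0.05 with the covariate. At an unadjusted p under 0.05 the list went from 0 higher and 1 lower (Rpl26) without the covariate to 10 higher and 0 lower with it. Translation factors went from -0.13 to -0.01, proteasome subunits from -0.12 to -0.01 and cytosolic heat shock proteins from -0.17 to -0.03. The respiratory chain behaved alike, with medians of -0.05 and 0.04 for 50 genes of complex I subunits and assembly factors and of -0.10 and 0.04 for 48 genes of complexes II to V. Of the 50 complex I genes, 1 (Ndufb3) was lower and none was higher without the covariate. Of the 48 genes of complexes II to V, 2 (Cox6a2 and Cox10) were lower and none was higher without it. With the covariate 3 were lower, these 2 among them, and 6 higher. Cox6a2 rested on 1 to 6 reads in libraries without IACS-010759 and 27 to 63 with it, so no fold is given for it. Reads of dense genes levelled off, so responses in these lists may be understated. The medians of these lists came nearer to 0 or changed sign with the covariate. They also rested on single libraries. For cytosolic ribosomal proteins the median was -0.04 without OHT replicate 1 or IACS replicate 3 and -0.25, with 43 genes lower, without OHT replicate 2. For complexes II to V it was -0.03 without either of the former and -0.20 without the latter, and for complex I -0.01 without OHT replicate 1 and -0.12 without OHT replicate 2.

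**Figure D4:**
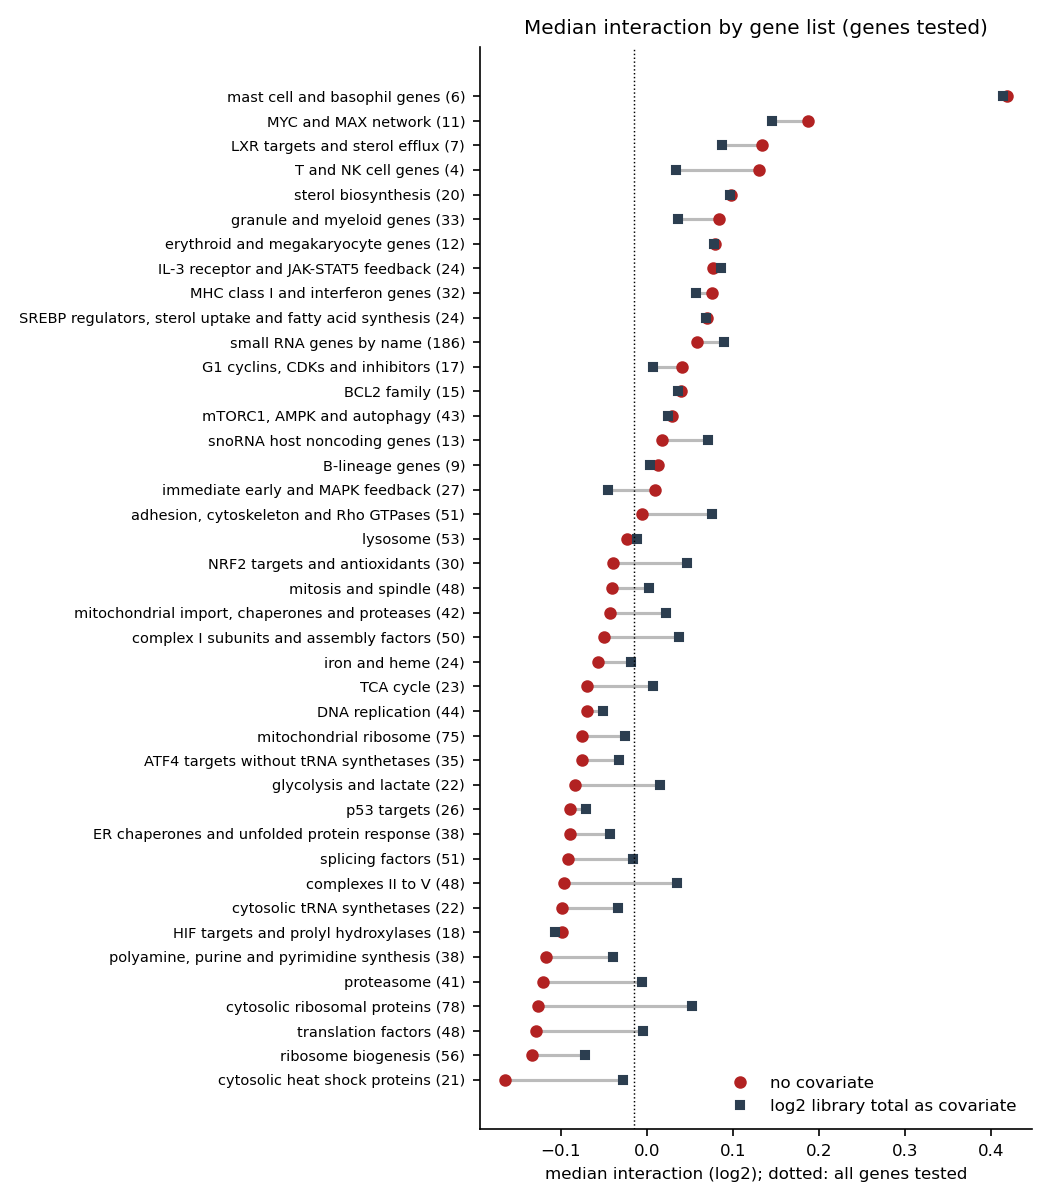
Median interaction on the log2 scale (x axis) of 41 gene lists (y axis, number of genes tested in brackets), without a covariate (red circles) and with the log2 of the library total in the model (dark squares). Cytosolic ribosomal proteins moved from -0.13 to 0.05, while sterol biosynthesis stayed at 0.10.

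IACS-010759 raised 28 of 35 tested ATF4 targets in nonprimed and 26 in OHT-primed cells, with 1 lowered in each. Their median responses were 0.42 and 0.35. Of all genes tested, 8.15% were raised and 7.74% lowered in nonprimed cells, and 11.9% raised and 11.8% lowered in OHT-primed cells. The median interaction of the ATF4 targets was -0.08 (-0.03 with the covariate). Of these targets, 3 (8.57%) were higher and 5 (14.3%) lower at an unadjusted p under 0.05, none of them called. Without IACS replicate 3 the median was -0.04 and 5 were higher. Lower were Ddit3, which encodes the transcription factor CHOP, Trib3, a pseudokinase that restrains ATF4, Pycr1 of proline synthesis, Mthfd2 of the mitochondrial folate pathway, and Vegfa. Higher were Pck2, the mitochondrial phosphoenolpyruvate carboxykinase, Jdp2, a basic leucine zipper repressor, and the amino acid transporter gene Slc1a4. Jdp2, Slc1a4, Pycr1, Mthfd2 and Vegfa were named after their values were seen. With the covariate, 7 of these genes were still past that level and Vegfa was not.

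Ddit3 measured 7.47, 7.58 and 7.24 RPKM in untreated cells, 17.6, 16.8 and 16.9 with IACS, 7.97, 10.2 and 8.42 with OHT and 14.7, 15.6 and 14.8 with OHT_IACS. Every IACS library exceeded every OHT_IACS library, and the responses were 1.17 and 0.76 on the log2 scale, an interaction of -0.41 ± 0.09 (SE, adjusted p = 0.13, limma). For Trib3 the order differed. It had 5.21, 5.86 and 6.11 RPKM in untreated cells, 22.04, 23.33 and 23.6 with IACS, 8.04, 11.8 and 8.56 with OHT and 26.28, 28.04 and 27.49 with OHT_IACS. The highest Trib3 levels were thus those with both agents although its response was the smaller one in OHT-primed cells, 1.54 against 1.96, since OHT alone had raised it by 0.68. Pck2 went the other way, from 20.9 to 21.9 RPKM in untreated cells to 39.3 to 40.1 with IACS, and from 13.89 to 15.96 with OHT to 33.3 to 34.6 with OHT_IACS, and its responses were 0.87 and 1.18. Atf5, the transcription factor with the strongest rise of those listed by name, had responses of 1.75 and 1.98 that differed by 0.23 ± 0.19 (SE), a difference whose sign changed with OHT replicate 2 as the lone OHT library (-0.09), and Asns, the asparagine synthetase gene, 0.52 and 0.32.

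**Figure D5:**
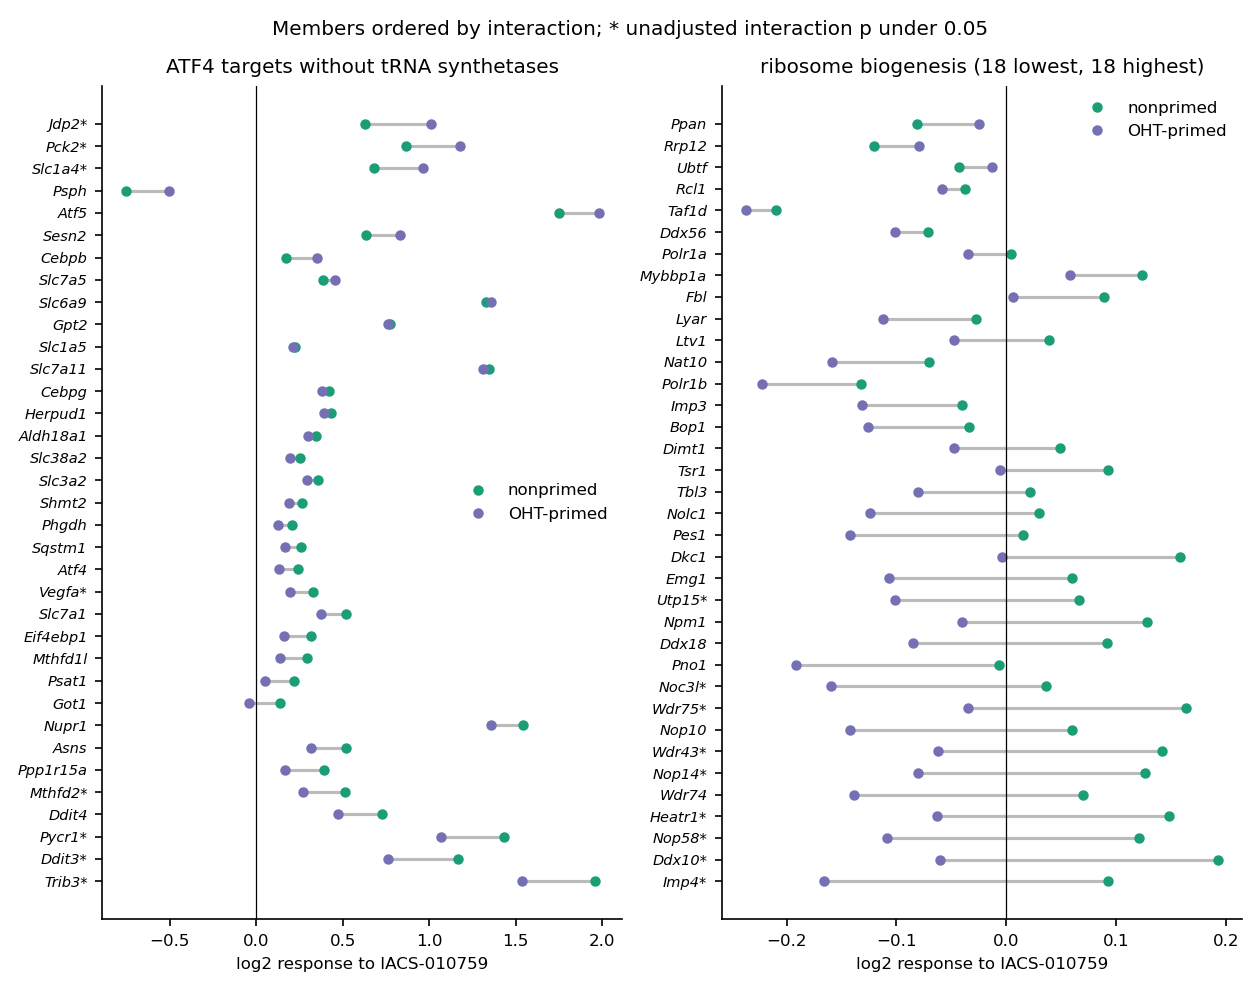
Log2 response to IACS-010759 (x axis) in nonprimed (green) and OHT-primed cells (purple) for the 35 ATF4 targets tested and for the 18 lowest and 18 highest of the 56 ribosome biogenesis genes (y axis, ordered by interaction); an asterisk marks an unadjusted interaction p under 0.05. For Ddit3 the primed response was the smaller one at 0.76 against 1.17, for Pck2 the larger one at 1.18 against 0.87.

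Of 20 sterol biosynthesis genes, 17 were lowered in nonprimed and 19 in OHT-primed cells and none was raised, with medians of -0.42 and -0.32. Of all genes tested, 7.74% and 11.8% were lowered in these 2 contexts. The median interaction was 0.10 with and without the covariate. At an unadjusted p under 0.05, 2 genes (10%, against 6.79% of all genes) were higher and none lower. Mvk, the mevalonate kinase, had 9.90, 9.80 and 9.43 RPKM in untreated cells, 6.70, 6.99 and 5.18 with IACS, 16.1, 15.4 and 15.5 with OHT and 14.3, 13.1 and 11.7 with OHT_IACS. It dropped without overlap in both contexts, by 0.66 and by 0.27 on the log2 scale, an interaction of 0.38 with an adjusted p of 0.25 (limma). Pmvk, the next kinase of the pathway, had 0.29, and Dhcr7, of the last steps to cholesterol, 0.25. Insig1, the sterol-sensing anchor of SCAP, was lowered alike, from 23.7 to 24.1 RPKM to 12.1 to 13.9 in nonprimed cells and from 25.4 to 27.4 to 15.1 to 15.7 in OHT-primed cells, and its 2 responses differed by 0.09 ± 0.06 (SE).

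Of 24 SREBP regulators and genes of sterol uptake and fatty acid synthesis, 13 had a positive interaction, 4 were higher and 2 lower at an unadjusted p under 0.05 and none was called. The median was 0.07, and 0.03 without IACS replicate 1. Srebf1, which encodes the lipogenic transcription factor SREBP-1, and Fads2, a fatty acid desaturase, had interactions of 0.30 and 0.27 with adjusted p of 0.14 and 0.16 (limma), and Insig2 and Elovl1, named after their values were seen, were the lower ones at -0.30 and -0.16. The LXR targets Abcg1 and Abca1, which export cholesterol, had interactions of 0.33 and 0.78. Of the 7 LXR targets tested, 3 were higher and none lower, with Apoe as the other one, named after its values were seen. With the covariate Abcg1 and Abca1 were still higher and Apoe was not.

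In the list of interleukin 3 receptor and JAK-STAT5 feedback genes 6 of 24 were higher (Il3ra, Socs1, Socs3, Jak3, Tyk2 and Sh2b3, the last 4 named after their values were seen) and none lower, and 6 were higher with the covariate, 4 of them the same. Socs1, a feedback inhibitor of JAK kinases, had 6.501, 5.356 and 6.663 RPKM in untreated cells, 5.77, 6.57 and 5.38 with IACS, 5.61, 6.05 and 6.40 with OHT and 7.85, 8.62 and 10.3 with OHT_IACS. The libraries with both agents were above the 9 others, which overlapped. Dusp6 and Dusp4, phosphatases that switch off ERK and other MAP kinases, had interactions of 0.38 and 0.43. They belong to the immediate early and MAPK feedback list, of whose 27 genes 5 were higher and 1 lower at a median of 0.01, and 3 higher and 2 lower at -0.05 with the covariate. That median took either sign with 1 library left out, from -0.08 without IACS replicate 3 to 0.05 without OHT replicate 2. For Dusp6 the values were 13.8 to 15.2 RPKM in untreated cells, 18.6 to 21.4 with IACS, 9.26 to 10.3 with OHT and 16.7 to 18.5 with OHT_IACS.

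In the MYC and MAX network 4 of 11 genes were higher, Mycn, Mxd3, Mxd4 and Myc, and 1 was lower, Txnip. Mxd3 and Mxd4 were named after their values were seen. With the covariate Mycn, Mxd3, Myc and Txnip were still past that level and Mxd4 was not. Myc had 35.8, 35.9 and 37.1 RPKM in untreated cells, 46.6, 46.9 and 47.0 with IACS, 19.3, 22.5 and 21.2 with OHT and 28.4, 30.9 and 31.6 with OHT_IACS. OHT lowered it and IACS-010759 raised it in either context, by 0.34 and by 0.53, and the interaction was 0.19 ± 0.08 (SE, adjusted p = 0.33, limma). Any contribution of transgene reads to the Myc values was not tested. Txnip, an arrestin-like protein that is lowered by active glucose use and limits glucose uptake, was raised by OHT and lowered by IACS-010759, with an interaction of -0.29.

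The granule and myeloid list was assembled with these responses known, so its count is no independent evidence. Of its 33 genes, 4 were higher (Gzmb, Hk3, Cfp and Ncf1, the last named after its values were seen) and 1 lower, Ngp, which had no read in any OHT_IACS library and 2 to 4 reads with OHT and was also named after its values were seen. The median of the list was 0.08 (0.04 with the covariate, and 0.04 also without OHT replicate 2, IACS replicate 3 or OHT_IACS replicate 3), and most of its genes were lower with OHT, at a median of -0.71. Of 6 mast cell and basophil genes, 3 were higher (Gata2, Cpa3 and Il6, the last named after its values were seen) and none lower. With the covariate Gata2 and Cpa3 were still higher and Il6 was not. Gata2, a transcription factor of mast cells and blood progenitors, had 33.6 to 35.1 RPKM in untreated cells, 35.0 to 37.1 with IACS, 24.3 to 26.6 with OHT and 33.1 to 34.0 with OHT_IACS. Its OHT libraries stood below all others, and the interaction was 0.37 ± 0.07 (SE, adjusted p = 0.060, limma). Cpa3, a mast cell carboxypeptidase, was highest with OHT_IACS at 11.1, 13.6 and 14.2 RPKM, against 7.62 to 8.47 with IACS.

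Of 44 DNA replication genes, 8 were lower and none higher, with a median of -0.07, and the covariate left 3 (Orc2, Dbf4 and Orc5, the last named after its values were seen) with a median of -0.05. IACS-010759 was called as lowering 5 of them in nonprimed and 22 in OHT-primed cells, where 7.74% and 11.8% of all genes were lowered. Without OHT replicate 2 the median was -0.12 and 14 were lower. HIF targets and prolyl hydroxylases, which record oxygen supply, had 4 of 18 genes lower and none higher at a median of -0.10, and 5 lower at -0.11 with the covariate. Bnip3, a mitochondrial BH3-like protein, read 23.7 to 29.3 RPKM in untreated cells, 12.6 to 15.2 with IACS, 33.6 to 36.5 with OHT and 12.4 to 15.8 with OHT_IACS. The libraries with IACS-010759 overlapped each other whatever the priming, while those with OHT alone were the highest, and the interaction was -0.32.

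Of 15 BCL2 family genes tested, Bcl2l12 and Bcl2 were higher and Bnip3 lower at an unadjusted p under 0.05, and none was called. With the covariate Bcl2l12 and Bnip3 were still past that level, and Bcl2, at 0.13, was not. Bcl2 had 22.7 to 23.4 RPKM in untreated cells, 28.6 to 30.2 with IACS, 13.1 to 15.5 with OHT and 19.4 to 20.2 with OHT_IACS, with no overlap between any groups and an interaction of 0.16 ± 0.07 (SE, adjusted p = 0.34, limma). Bbc3 and Bcl2l11, which encode the BH3-only proteins PUMA and BIM, had interactions of 0.22 ± 0.15 (SE) and 0.20 ± 0.20 (SE), and Bcl2l1, which encodes BCL-XL, 0.07 ± 0.07 (SE).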

How the data were processed

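The authors deposited RPKM values per gene for 12 libraries of stranded total RNA depleted of ribosomal RNA with Ribo-Zero. The submitters' processing notes name mm9, TopHat2 2.0.8, featureCounts 1.4.5-p1, SAMtools and DESeq2; the annotation is not given in the sources used here. Columns of the authors' own comparisons (log2 fold changes and adjusted p of DESeq2) were not used. Groups came from the labels. Members, lists and tests were chosen with earlier results of these data known.

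The smallest spacing of a gene's RPKM values gave whole reads and, from them, the total of each library. Genes with an RPKM of 1 or more in 3 or more libraries were kept, scaled by median ratios, and analysed as log2(RPKM + 0.1), which understates changes of low genes, with limma 3.58.1 (R 4.3.3; trended variance, all 12 libraries, Benjamini-Hochberg adjustment). The study's methods call the replicates of a condition biological and do not say more of how they were grown. Among genes under 0.1 reads per base, replicates differed by more than sampling noise in all 12 within-group pairs, and none was counted as a duplicate. The excess was small in some pairs. The chi-square per gene was 1.09 for replicates 1 and 2 of untreated and of IACS, and 1.98 for those of OHT. Part of it may follow library depth, which was not tested, so independence of the replicates is not shown by it. Denser genes, whose reads levelled off with depth and whose changes may be understated, were not part of this comparison. The fit was tested on simulated data. Tables and plots were made in matplotlib 3.10.9, pandas 2.3.3 and numpy 2.4.6 under Python 3.11.15. Chosen for naming were the called genes, the 10 lower genes of smallest p and genes called in opposite directions. The 2 members of smallest p in each list and a short fixed list were added. Not all of these list members are printed, and genes named otherwise are marked in the text. Promoter windows are from RefSeq GRCm38.p6 and were trimmed with GENCODE vM21, not the build of the files, whose coordinates were not used. Alternatives covered the scaling, filter, pseudocount, variance model, library total, replicate number and each library left out.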

Additional observations from a re-analysis of the deposited data

Results flagged for a closer look

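The 14 called genes are listed because the response to IACS-010759 differed between OHT-primed and nonprimed cells by the test of the difference itself (limma, adjusted p under 0.05). Their log2 differences were 1.05 for Gzmb, 1.04 for Hk3, 0.98 for Cfp, 0.57 for Tuba8, 0.81 for Stab1, 0.69 for Elk3, 0.50 for Mycn, 1.86 for Rras, 0.69 for 4930404N11Rik, 0.68 for Il3ra, 0.36 for Cat, 0.93 for Ctrl, 0.41 for Rab44 and 0.62 for Ptprv. Rras and Ctrl rested on 11.8 and 23.9 reads a library on average. The fitted value of Rras depends on the pseudocount, from 0.66 at 1 to 2.38 at 0.01, and is no measure of size, and that of Ctrl ran from 0.55 to 1.12.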

How the results depend on the processing

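The called genes kept their direction in all 385 alternative values, of which 211 passed the threshold. The number of called genes, 14, was 7 without a filter, 5 on RPKM as deposited, 34 with quantile scaling, 5 with the log2 total as covariate, 25 with voom and 1066 with library weights (1311 higher and 1612 lower at an unadjusted p under 0.05). On RPKM as deposited, 426 genes were higher and 833 lower at that level, against 662 and 578, at a median of -0.04. With the replicate block the number of called genes was 7, and 3 with the block and the total. Deviations of same-numbered libraries from their group means correlated between -0.172 and 0.104, so no clear pairing by number was seen. These deviations also carry depth, so they cannot show that a shared batch was absent. With OHT replicate 2 as the lone OHT library, the 2 smallest libraries being left out, 424 genes were higher and 428 lower, and 12 were called (9 higher, 3 lower). Leaving out 1 library gave 3 to 130 called genes, 479 to 963 higher and 392 to 1217 lower; 130 and 1217 came without OHT replicate 2, and 3 without OHT replicate 3 or OHT_IACS replicate 3. Gzmb was called under all alternatives run. Hk3 was lost on the RPKM scale (adjusted p = 0.18, limma) and Cfp with the block and the total (0.096). Stab1 was not called in 6 of 28 settings (adjusted p up to 0.14, with the block and the total) and Tuba8 in 4 of 27 (0.051 on the RPKM scale). The Rras value ran from 0.66 to 2.38 and that of Ctrl from 0.55 to 1.12, lowest at a pseudocount of 1. The 9 genes not called with the covariate lost 7 to 9 calls without any 1 library other than OHT replicate 2. Among the 94 other named genes, 14 of 2589 alternative values changed sign, none past the threshold on either side, and 111 passed it, 67 with library weights and 19 without OHT replicate 2. On the RPKM scale these were Trib3 (0.72 RPKM), Myc (-0.509), Bcl2 (-0.123), Insig1 (-0.015) and Atf5 (-0.473), that scale measuring another quantity. On the log2 scale they were Rmrp with quantile scaling (0.026), the total (0.066), the block and the total (0.081) and OHT replicate 2 alone (0.124), Atf5 with the last (-0.093), Syk with quantile scaling (-0.003), Bcl2l1 with library weights (-0.011) and Lat with the total (-0.018) and without IACS replicate 3 (-0.025; 0.349 at the most with 1 library left out). The causes were not tested.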
